A study of Homo sapiens with 12 samples.

Results

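MOLM-13 cells held for 8 days in MI-3454 were compared directly with MOLM-13 cells held for 8 days in gilteritinib. The comparison used 3 libraries per agent, 6 of the 12 in the series, and they were chosen by sample title. MOLM-13 is a standard cell line of acute myeloid leukaemia with the MLL-AF9 fusion gene and a FLT3 receptor with an internal tandem duplication. MI-3454 is a small molecule that keeps menin from binding MLL1. Gilteritinib is a kinase inhibitor directed at FLT3 that also acts on AXL. The other 6 libraries received DMSO, the vehicle, or both agents together, and they took no part in the filter, the scaling or the test. All groups shared the line, the medium and the treatment time, and the sources used here give no dose. The compound label of MI-3454 replicates 2 and 3 ends in a different number from that of replicate 1, whereas the titles name a single compound, so the titles were followed. The triplicates were separate seedings of 1 line, so every p-value reflects variation among such cultures and says nothing about other leukaemias. In these bulk libraries, a change in the number of cells of a kind cannot be told apart from a change in the RNA of each cell.

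Both agents act on the same leukaemia through different proteins. MLL1 is a histone methyltransferase that keeps HOXA genes and MEIS1 switched on in early blood progenitors, and an MLL fusion needs menin to reach these genes, where it holds them open and blocks differentiation. FLT3 is a receptor tyrosine kinase of progenitors, and its internal tandem duplication signals without ligand, through STAT5, through RAS and the MAP kinases, and through PI3K and AKT. AKT in turn keeps FOXO transcription factors out of the nucleus. FLT3 is itself a gene that MLL fusions are known to maintain.

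Reads counted in genes numbered 8983203, 9413613 and 9930198 in the MI-3454 libraries, and 12051457, 9028112 and 9142642 in the gilteritinib libraries. Defining markers of the line were present: CD33 stood at 151, 153 and 177 CPM (counts scaled to a library of 1e6) with MI-3454 and at 139, 151 and 140 CPM with gilteritinib, and SPI1, the myeloid master regulator, at 222 to 350 and at 278 to 351 CPM. The markers were not all alike between the agents. Of 7 tested, LYZ, ITGB2, CD93 and PTPRC (57.1%, beside 10.4% of all genes) were called higher with MI-3454. The PTPRC call was lost without replicate 1 or 2 of either agent, each taken singly. CSF2RA, another marker of the list, had no counts in any of the 6 libraries, and nor had the cytokine receptor gene IL3RA. Whether reads of these genes were lost in the counting was not tested. On the first principal component, which held 69.4% of the variance, the 3 MI-3454 libraries (-37.15, -40.65 and -27.34) lay apart from the 3 gilteritinib libraries (31.65, 41.24 and 32.24). MI-3454 replicate 3 and gilteritinib replicate 2 stood apart from the other libraries of their group. Their scores on the second component, with 14.9% of the variance, were -28.48 and -16.65, against 8.01 to 13.49 for the other 4. MI-3454 replicate 3 had the highest share of the signal recognition particle RNA RN7SL1, at 4.56% of counts against 2.02 to 2.88% in the other 5 libraries. Gilteritinib replicate 2 had the highest share of mitochondrially encoded messages, at 2.77% against 0.697 to 1.12%. Neither share separated the groups. The RN7SL1 share averaged 2.97 ± 1.38% with MI-3454 and 2.5 ± 0.34% with gilteritinib (SD, n = 3 each, two-sided exact permutation p = 0.9), and the mitochondrial share averaged 0.879 ± 0.218% and 1.63 ± 0.991% (exact p = 0.3), where 3 against 3 cannot go below 0.1. Results that rest on these libraries are given below with and without them.

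Of 13010 genes tested, 2355 (18.1%) differed between MI-3454 and gilteritinib, with 1351 (10.4%) higher and 1004 (7.72%) lower with MI-3454. A gene was called at an adjusted p under 0.05 in edgeR's quasi-likelihood test with Benjamini-Hochberg adjustment over all genes tested, and log2 changes are MI-3454 over gilteritinib, given with their standard error. An unadjusted p under 0.05 was reached by 4217 genes (32.4%). At least a 2-fold difference was reached by 561 (4.31%) genes called higher and 316 (2.43%) called lower. The CPM of the 3 MI-3454 and the 3 gilteritinib libraries did not overlap in 4660 (35.8%) genes, 2399 (18.4%) with MI-3454 above and 2261 (17.4%) with MI-3454 below, and 2348 of the called genes were among them. The median log2 change of all tested genes was 0.004. The filter on low counts was passed through the MI-3454 libraries alone by 166 genes, of which 125 were called, and through the gilteritinib libraries alone by 103, of which 84 were called. For such genes the test is not independent of the filter and gives no support, so those named here are described by their levels. The other 12741 genes passed in both groups, meaning that at least a single library of each agent reached the cutoff of 1.08 CPM. STC2, CCND1, EGR2, ALOX5 and HLA-DQB1 did so with fewer than 3 libraries of their lower group, so their calls give no support either.

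**Figure D1:**
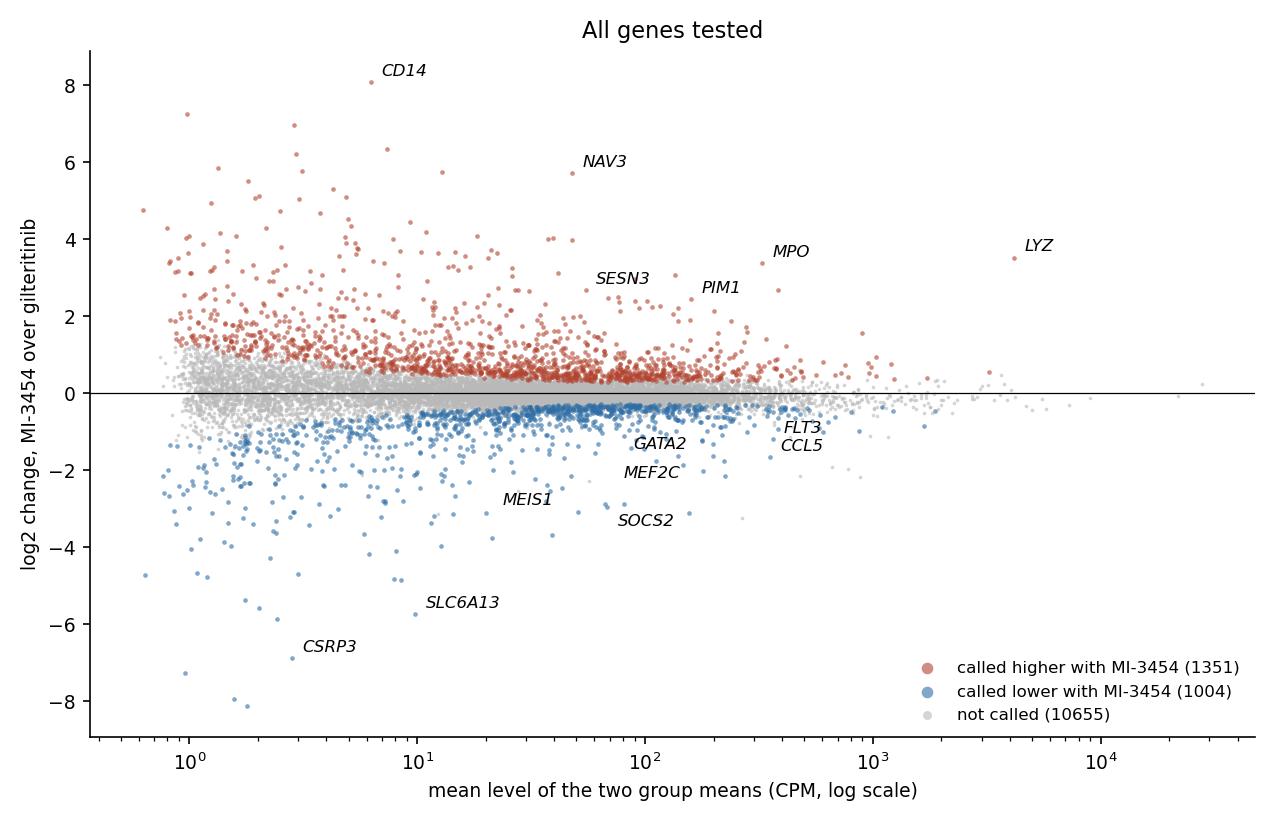
Log2 change of MI-3454 over gilteritinib (vertical axis) against the average of both group means in CPM (horizontal axis, log scale) for the 13010 genes tested; red points were called higher with MI-3454 (1351), blue points lower (1004) and grey points were not called. The fitted changes of called genes reached 8.08 upward and -8.13 downward, and the grey band widens at low levels.

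The gene furthest above was CD14, the lipopolysaccharide co-receptor of monocytes (chr5:140631728-140633701 on GRCh38, minus strand). Its level was 10.8, 13.1 and 13.5 CPM with MI-3454, against 0.0815, 0 and 0 CPM with gilteritinib. The MI-3454 libraries held 356 of its counts and the gilteritinib libraries 1, a ratio of 374 (exact 95% counting interval 66.7 to 14800, counting error only). NAV3, which encodes a microtubule-associated protein, was high in absolute terms as well, at 98.8, 92.3 and 90 CPM with MI-3454, against 2.12, 1.43 and 1.62 CPM with gilteritinib (log2 change 5.72 ± 0.15, adjusted p = 8.13e-09). Its DMSO libraries held 0.535, 0.747 and 0.529 CPM, below each gilteritinib library. ROS1, a receptor tyrosine kinase, stood at 27.1, 27.2 and 21.6 CPM with MI-3454, against 0.652, 0.357 and 0.323 CPM with gilteritinib. CYP4F3, the leukotriene B4 hydroxylase of neutrophils, stood at 15.3, 13.9 and 14.5 CPM, against 0.244, 0 and 0.215 CPM with gilteritinib. The remaining protein-coding genes of the 8 furthest above were ANKRD22, CLEC7A, S100A8 and SERPINA1. Of the 8, NAV3 alone passed the filter in both groups.

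Several of the genes furthest below held few counts with MI-3454. CSRP3, a muscle LIM protein, had 1 count over the 3 MI-3454 libraries and 169 over the gilteritinib libraries (ratio 161, exact 95% counting interval 28.5 to 6390). SLC6A13, a GABA transporter, stood at 0.435, 0.4 and 0.214 CPM with MI-3454, against 18.3, 19.9 and 19.7 CPM with gilteritinib. With DMSO, SLC6A13 held 1.78, 1.59 and 2.01 CPM and CSRP3 0.424 to 1.61 CPM, so the vehicle lay between the agents in both genes. JCAD, an endothelial junction protein, had 0.326, 0.6 and 0.642 CPM with MI-3454, 14.5, 17.5 and 13.9 CPM with gilteritinib and 14.7, 17 and 18.3 CPM with DMSO. IL12RB2, a chain of the interleukin-12 receptor, stood at 1.63, 1.9 and 0.963 CPM with MI-3454, 25.1, 23.1 and 23.6 CPM with gilteritinib and 18.9, 16.6 and 16.3 CPM with DMSO. DYNC1I1, ADAMTS7, KLHDC7B and MYO6 completed the 8, and IL12RB2 alone of them passed the filter in both groups.

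The HOXA genes are homeobox factors of blood progenitors that MLL1 keeps on. Of the 11 genes of the cluster on the list 9 were tested, 8 of them (88.9%, beside 7.72% of all genes) were called lower with MI-3454, and 1 did not pass. The median log2 change was -0.95. The CPM of the groups did not overlap in any of the 9 tested, with MI-3454 below, as in 17.4% of all genes. HOXA9, the member most tied to MLL leukaemia, stood at 36.9, 36.1 and 39.3 CPM with MI-3454, 54.7, 53.1 and 59.6 CPM with gilteritinib and 63.8, 59 and 61 CPM with DMSO (-0.58 ± 0.10, adjusted p = 0.00187). It was the smallest change in the cluster. HOXA3 was the largest, at 1.63, 2.8 and 2.78 CPM with MI-3454, against 13, 17.7 and 10.9 CPM with gilteritinib (-2.51 ± 0.26, adjusted p = 4.81e-05). HOXA5, HOXA6 and HOXA7 lay between -1.53 and -2.03, and HOXA10, HOXA11 and HOXA13 between -0.63 and -0.95. HOXA4 fell under the filter, with 8 counts over the MI-3454 libraries and 31 over the gilteritinib libraries.

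The next list held partners and further targets of the MLL fusion. Of 13 tested, 10 (76.9%, beside 7.72% of all genes) were called lower and ZEB2, MBNL1 and MYB were not called. The median was -1.01. MEIS1, the cofactor with which HOXA9 binds DNA (chr2:66433452-66573869, plus strand), stood at 11.9, 11.1 and 9.2 CPM with MI-3454, 88.7, 93.8 and 89.8 CPM with gilteritinib and 66.8, 61 and 71.7 CPM with DMSO. Its log2 change was -3.08 ± 0.12 (adjusted p = 7.66e-08), and the lowest gilteritinib library held more than the highest DMSO library. MEF2C, a transcription factor of myeloid progenitors, stood at 69.9, 74.9 and 67.2 CPM with MI-3454, 296, 288 and 282 CPM with gilteritinib and 379, 323 and 382 CPM with DMSO (-2.03 ± 0.10, adjusted p = 1.89e-07). ZNF521, a zinc finger protein of stem and progenitor cells, and PBX3, the other DNA-binding cofactor of HOXA9, changed by -1.87 ± 0.09 and -1.13 ± 0.09. MYB, a progenitor transcription factor that MLL fusions also occupy, did not pass, at 541, 542 and 499 CPM with MI-3454, against 609, 562 and 607 CPM with gilteritinib (-0.17 ± 0.10, adjusted p = 0.288).

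The target of gilteritinib itself was lower under the other agent. FLT3 (chr13:28003274-28100592, minus strand) stood at 242, 229 and 198 CPM with MI-3454, 538, 467 and 521 CPM with gilteritinib and 751, 601 and 703 CPM with DMSO. The groups did not overlap, and the log2 change was -1.19 ± 0.12 (adjusted p = 3.18e-05). BCL2, the anti-apoptotic protein that venetoclax inhibits, stood at 166, 159 and 154 CPM with MI-3454, 298, 279 and 290 CPM with gilteritinib and 390, 358 and 433 CPM with DMSO (-0.86 ± 0.09, adjusted p = 7.95e-05).

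Of the genes of the menin and MLL1 machinery, 16 were tested and 3 were called lower (18.8% of the list, beside 7.72% of all genes tested), the median was -0.07, and without MI-3454 replicate 3 the number lower was 6. MEN1, which encodes menin, stood at 44.9, 35.5 and 53.9 CPM with MI-3454, against 52.8, 56 and 47.8 CPM with gilteritinib. Its groups overlapped and it did not pass (-0.22 ± 0.14, adjusted p = 0.313), although it was called lower without MI-3454 replicate 3 (-0.38, adjusted p = 0.0202). KMT2A, which encodes MLL1, was at 51.9 to 62.7 CPM and at 48.2 to 56.1 CPM (0.13 ± 0.11, adjusted p = 0.426), and MLLT3, which encodes AF9, at 8.7 to 9.9 CPM and at 7.38 to 9.86 CPM. The 3 called were AFF1, a scaffold of the elongation complex (-0.51 ± 0.09, adjusted p = 0.00285), the elongation kinase CDK9 (-0.44 ± 0.09, adjusted p = 0.00736) and DOT1L, the H3K79 methyltransferase (-0.50 ± 0.13, adjusted p = 0.0197). CDK9 was not called without gilteritinib replicate 3 (adjusted p = 0.0519). DOT1L was not called without MI-3454 replicate 1 (0.0957), MI-3454 replicate 2 (0.0768) or gilteritinib replicate 2 (0.067).

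**Figure D2:**
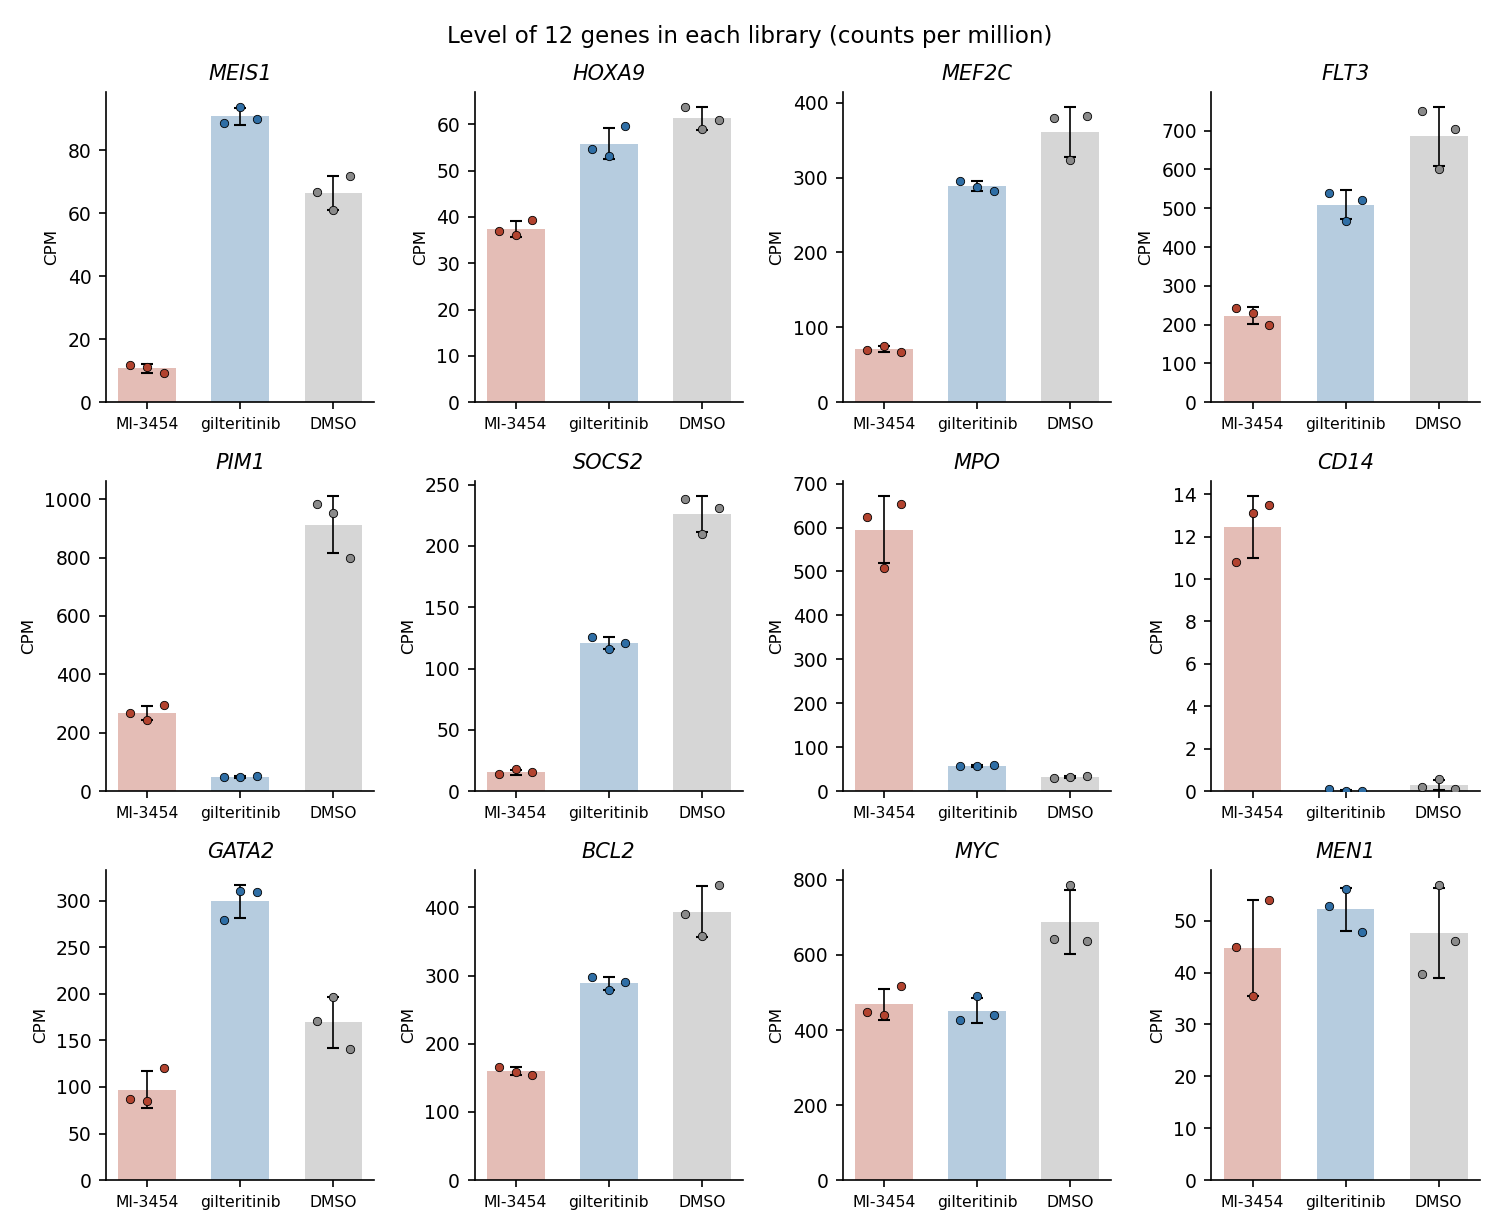
Level of 12 genes in CPM (vertical axes, linear from 0) in the 3 libraries with MI-3454, gilteritinib and DMSO; bars are group means, whiskers 1 SD and points the libraries. MEIS1, MEF2C, FLT3, BCL2 and HOXA9 are lowest with MI-3454, PIM1 is lowest with gilteritinib, SOCS2 is lowest with MI-3454, MPO and CD14 are high with MI-3454 alone of the 3 groups, and MYC and MEN1 overlap between both agents.

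The targets of STAT5, the factor that FLT3 with an internal tandem duplication drives, were split. Of 12 tested, 6 (50%, beside 10.4% of all genes) were called higher with MI-3454 and 3 (25%, beside 7.72%) lower. The median was 0.58. PIM1, a survival kinase, stood at 267, 245 and 294 CPM with MI-3454, 47.9, 46.8 and 53.1 CPM with gilteritinib and 984, 954 and 800 CPM with DMSO (2.45 ± 0.11, adjusted p = 1.48e-07). CISH, a feedback inhibitor of cytokine receptors, stood at 95.9, 85.6 and 110 CPM with MI-3454, against 49.5, 51 and 51.4 CPM with gilteritinib (0.94 ± 0.11, adjusted p = 0.000112), and averaged 234 CPM with DMSO. Both genes were lowest with gilteritinib, in all 3 of its libraries. SOCS2, another feedback inhibitor, went the other way, with 13.6, 17.7 and 15.3 CPM with MI-3454, 126, 116 and 121 CPM with gilteritinib and 238, 210 and 231 CPM with DMSO (-2.96 ± 0.12, adjusted p = 8.11e-08). PIM2, a sister kinase of PIM1, was lower as well, at 33 to 37.3 CPM with MI-3454, against 53.7 to 55 CPM with gilteritinib (-0.65 ± 0.10, adjusted p = 0.000767). OSM, the cytokine oncostatin M, was the other called lower (-0.95 ± 0.22, adjusted p = 0.0126), a call lost without MI-3454 replicate 1 (0.0553) or gilteritinib replicate 1 (0.0575). SOCS3, BCL6, CCND2 and ID1 were called higher by 0.59 to 0.88, whereas SOCS1, PIM3 and BCL2L1 did not pass. CCND2 was not called without MI-3454 replicate 1 (adjusted p = 0.063) or 2 (0.0566).

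The promoter of CISH is shown because it held the most matches to the STAT5 motif of the list. It covers the 250 bases before the start of the gene in RefSeq on GRCh38.p14, chr3:50611775-50612024, minus strand, and the capitals mark matches to TTCNNNGAA, which reads the same on both strands.
CISH: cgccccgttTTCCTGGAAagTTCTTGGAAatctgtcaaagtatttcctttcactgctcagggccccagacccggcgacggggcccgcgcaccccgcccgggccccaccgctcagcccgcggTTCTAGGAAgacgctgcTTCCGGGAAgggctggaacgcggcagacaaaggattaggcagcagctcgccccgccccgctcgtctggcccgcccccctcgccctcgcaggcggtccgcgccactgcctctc
The 4 matches begin 241, 230, 129 and 112 bases before the start. Of the 10 list members with a promoter in the table, 2 held the motif, CISH and BCL6, beside 6.57% of all 35116 promoters of the same length. The PIM1 window held none of these letters, which says nothing of STAT5 elsewhere in the gene.

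Feedback genes and outputs of the MAP kinase pathway were called in both directions. Of 18 tested, 4 were called higher and 4 lower (22.2% each, beside 10.4% and 7.72% of all genes), with a median of -0.21. On the higher side were SPRY1 and SPRY4, inhibitors of receptor signalling, the transcription factor FOSB and DUSP6, the phosphatase that switches ERK off. DUSP6 stood at 52.9, 46.2 and 43.6 CPM with MI-3454, 35.2, 29.5 and 37.5 CPM with gilteritinib and 21.9, 21.1 and 16.5 CPM with DMSO (0.48 ± 0.12, adjusted p = 0.0194). Its call was lost without MI-3454 replicate 1 (0.0897), gilteritinib replicate 1 (0.0576) or gilteritinib replicate 2 (0.0722). SPRY4 was not called without MI-3454 replicate 1 (0.0628) or gilteritinib replicate 1 (0.0593). On the lower side, EGR3, an early response factor, stood at 1.41, 1.6 and 2.25 CPM with MI-3454, against 11.7, 12.7 and 12.7 CPM with gilteritinib (-2.81 ± 0.21, adjusted p = 3.98e-06). CCND1, which encodes cyclin D1, stood at 1.31, 0.9 and 0.214 CPM, against 6.03, 8.57 and 7.75 CPM with gilteritinib. Only its first MI-3454 library reached the filter's cutoff, so its call gives no support. EGR2 and the ETS factor ETV5 were the other 2 called lower, and the EGR2 call was lost on leaving out any single library except MI-3454 replicate 3 (adjusted p 0.0896 to 0.133). The number called higher was at most 2 without MI-3454 replicate 1 or gilteritinib replicate 1. The number called lower was 2 without MI-3454 replicate 2, gilteritinib replicate 1 or gilteritinib replicate 2, and 8 without MI-3454 replicate 3.

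FOXO targets are genes known to be induced when AKT is quiet. Of 13 tested, 3 (23.1%, beside 10.4% of all genes) were called higher with MI-3454 and the others did not pass, with a median of 0.26. Without MI-3454 replicate 3, 1 was called lower, and without that library and gilteritinib replicate 2, 6 were called higher and 1 lower. SESN3, an inhibitor of mTORC1, stood at 110, 103 and 71.8 CPM with MI-3454, against 15.5, 12 and 16.9 CPM with gilteritinib, and averaged 12.2 CPM with DMSO (2.68 ± 0.18, adjusted p = 1.9e-06). IRS2, the insulin receptor substrate, stood at 351, 365 and 451 CPM with MI-3454, against 149, 162 and 154 CPM with gilteritinib (1.33 ± 0.12, adjusted p = 1.74e-05). BCL2L11, which encodes the death protein BIM, changed by 0.49 ± 0.10 (adjusted p = 0.0071). TXNIP, often used as a readout of glucose and FOXO activity, overlapped between the groups (0.16 ± 0.12, adjusted p = 0.382), and so did KLF2 and CDKN1B.

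Among receptors, 4 tyrosine kinases of 8 tested (50%, beside 7.72% of all genes) were called lower with MI-3454 and 2 (25%, beside 10.4%) higher. Of the 7 that passed the filter in both groups, 3 were called lower and 2 higher. AXL, which gilteritinib also inhibits, stood at 3.05, 7.7 and 6.1 CPM with MI-3454, 25.3, 27.8 and 31.8 CPM with gilteritinib and an average of 27.5 CPM with DMSO (-2.32 ± 0.24, adjusted p = 5.68e-05). The 2 called higher were CSF1R, the receptor of macrophage colony-stimulating factor, at 143, 145 and 185 CPM with MI-3454, against 68.8, 71.4 and 69.8 CPM with gilteritinib (1.17 ± 0.11, adjusted p = 3.42e-05), and IGF1R (1.20 ± 0.14, adjusted p = 0.000115). Of the cytokine receptors, 4 of 12 tested (33.3%, beside 10.4% of all genes) were called higher and the rest did not pass. These 4 were CSF1R, IL10RA, the interleukin-10 receptor (1.36 ± 0.11, adjusted p = 6.51e-06), IFNGR1, the interferon gamma receptor (0.78 ± 0.12, adjusted p = 0.000866), and CSF3R, the G-CSF receptor (0.58 ± 0.13, adjusted p = 0.00837). CSF3R was not called without gilteritinib replicate 1 (adjusted p = 0.055), and without MI-3454 replicate 3 the number called higher was 7.

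The list of amino acid supply held genes under ATF4, the factor that the integrated stress response raises. Of 27 tested, 15 (55.6%, beside 10.4% of all genes) were called higher with MI-3454 and 2 lower, with a median of 0.46. Of the 26 that passed the filter in both groups, 14 were called higher, with a median of 0.40. STC2, a secreted glycoprotein that ATF4 induces, stood at 4.24, 7.2 and 5.24 CPM with MI-3454, against 0.489, 0.952 and 1.29 CPM with gilteritinib, and averaged 36.6 CPM with DMSO. CHAC1, which breaks down glutathione, stood at 32.1, 29.8 and 43.9 CPM with MI-3454, against 8.64, 11.5 and 11.6 CPM with gilteritinib (1.74 ± 0.18, adjusted p = 5.23e-05), and averaged 116 CPM with DMSO. In both genes each MI-3454 library lay above each gilteritinib library and below the DMSO average. The serine synthesis enzymes PHGDH (1.39 ± 0.13) and PSAT1 (1.06 ± 0.10), the mitochondrial folate enzyme ALDH1L2 (1.46 ± 0.11) and the cystine transporter SLC7A11 (1.72 ± 0.18) were among those called higher. PHGDH stood at 202, 212 and 271 CPM with MI-3454, against 83.4, 95.8 and 82.8 CPM with gilteritinib, and averaged 341 CPM with DMSO. ATF4 itself just missed the threshold, at 494, 453 and 526 CPM, against 377, 406 and 389 CPM with gilteritinib (0.33 ± 0.10, adjusted p = 0.051). DDIT3, which encodes the stress factor CHOP, was lower, at 8.05, 9.8 and 13.5 CPM, against 15.8, 23.8 and 17.3 CPM with gilteritinib (-0.85 ± 0.21, adjusted p = 0.0171). ATF5 was the other called lower, and neither was called lower without MI-3454 replicate 1, MI-3454 replicate 2 or gilteritinib replicate 2, each taken singly.

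The promoters of ASNS and CHAC1 are shown because both held the motif searched for ATF4. Each covers the 250 bases before the start in RefSeq on GRCh38.p14, at chr7:97872409-97872658 on the minus strand for ASNS and chr15:40953221-40953470 on the plus strand for CHAC1. The capitals mark matches to TGATGNAA on either strand.
ASNS: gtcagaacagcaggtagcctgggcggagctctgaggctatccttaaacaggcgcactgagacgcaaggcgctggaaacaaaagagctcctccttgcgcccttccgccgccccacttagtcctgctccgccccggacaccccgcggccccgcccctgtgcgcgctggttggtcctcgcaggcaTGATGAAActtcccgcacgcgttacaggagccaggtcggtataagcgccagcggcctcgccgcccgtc
CHAC1: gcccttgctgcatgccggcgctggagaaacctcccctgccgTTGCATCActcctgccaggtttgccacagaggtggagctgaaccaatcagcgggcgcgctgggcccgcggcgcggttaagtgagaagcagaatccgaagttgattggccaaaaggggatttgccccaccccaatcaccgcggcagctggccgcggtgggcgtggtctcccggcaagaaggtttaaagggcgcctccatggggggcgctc
The match begins 68 bases before the start in ASNS and 209 bases before it in CHAC1. ASNS, asparagine synthetase, stood at 1.96, 5.2 and 2.89 CPM with MI-3454, against 0.57, 1.07 and 0.754 CPM with gilteritinib, and passed the filter through the MI-3454 libraries alone. ATF3, which was not called, was the only other of 22 members in the promoter table with a match, so 13.6% of the list held the motif, beside 3.14% of all promoters.

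In each of the other anabolic lists at most 3 genes were called higher and at most 1 lower. Of 23 cholesterol synthesis genes tested, 0 were called by edgeR, 4 above and 4 below had an unadjusted p under 0.05, and DESeq2 called 1 higher. The median was 0.01. Without MI-3454 replicate 3, 4 cholesterol genes were called higher and 3 lower. MYC, the growth regulator, stood at 449, 440 and 516 CPM with MI-3454, 426, 490 and 440 CPM with gilteritinib and 643, 787 and 636 CPM with DMSO (0.05 ± 0.11, adjusted p = 0.784). Among the 26 ribosome biogenesis and MYC genes the median was -0.15 and BYSL, a ribosome assembly factor, was the single call, lower by 0.35 at an adjusted p of 0.0489, which was lost without any of the replicates except MI-3454 replicate 3 (adjusted p 0.0845 to 0.181). Without MI-3454 replicate 3 the number lower was 6. In glycolysis 3 of 19 (15.8%, beside 10.4% of all genes) were called higher, the glucose transporter SLC2A3 and the kinases HK1 and PFKFB3, by 0.41 to 0.52. SLC2A3 was not called without MI-3454 replicate 1 (adjusted p = 0.0635), nor PFKFB3 without gilteritinib replicate 2 (0.0502). In fatty acid synthesis, 3 of 11 (27.3%) were called higher and 1 lower, with FADS1, the delta-5 desaturase, at 162, 140 and 143 CPM with MI-3454, against 82.5, 76.9 and 81.7 CPM with gilteritinib (0.88 ± 0.10, adjusted p = 7.03e-05). The others higher were ACSS2, an acetyl-CoA synthetase, and SCD, the stearoyl-CoA desaturase, whose call was lost without MI-3454 replicate 1 or any 1 of the gilteritinib replicates (adjusted p 0.0787 to 0.125). The malic enzyme ME1 was the gene called lower, at 0.979, 0.5 and 0.749 CPM with MI-3454, against 3.26, 1.67 and 2.91 CPM with gilteritinib, and it passed the filter through the gilteritinib libraries alone.

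**Figure D3:**
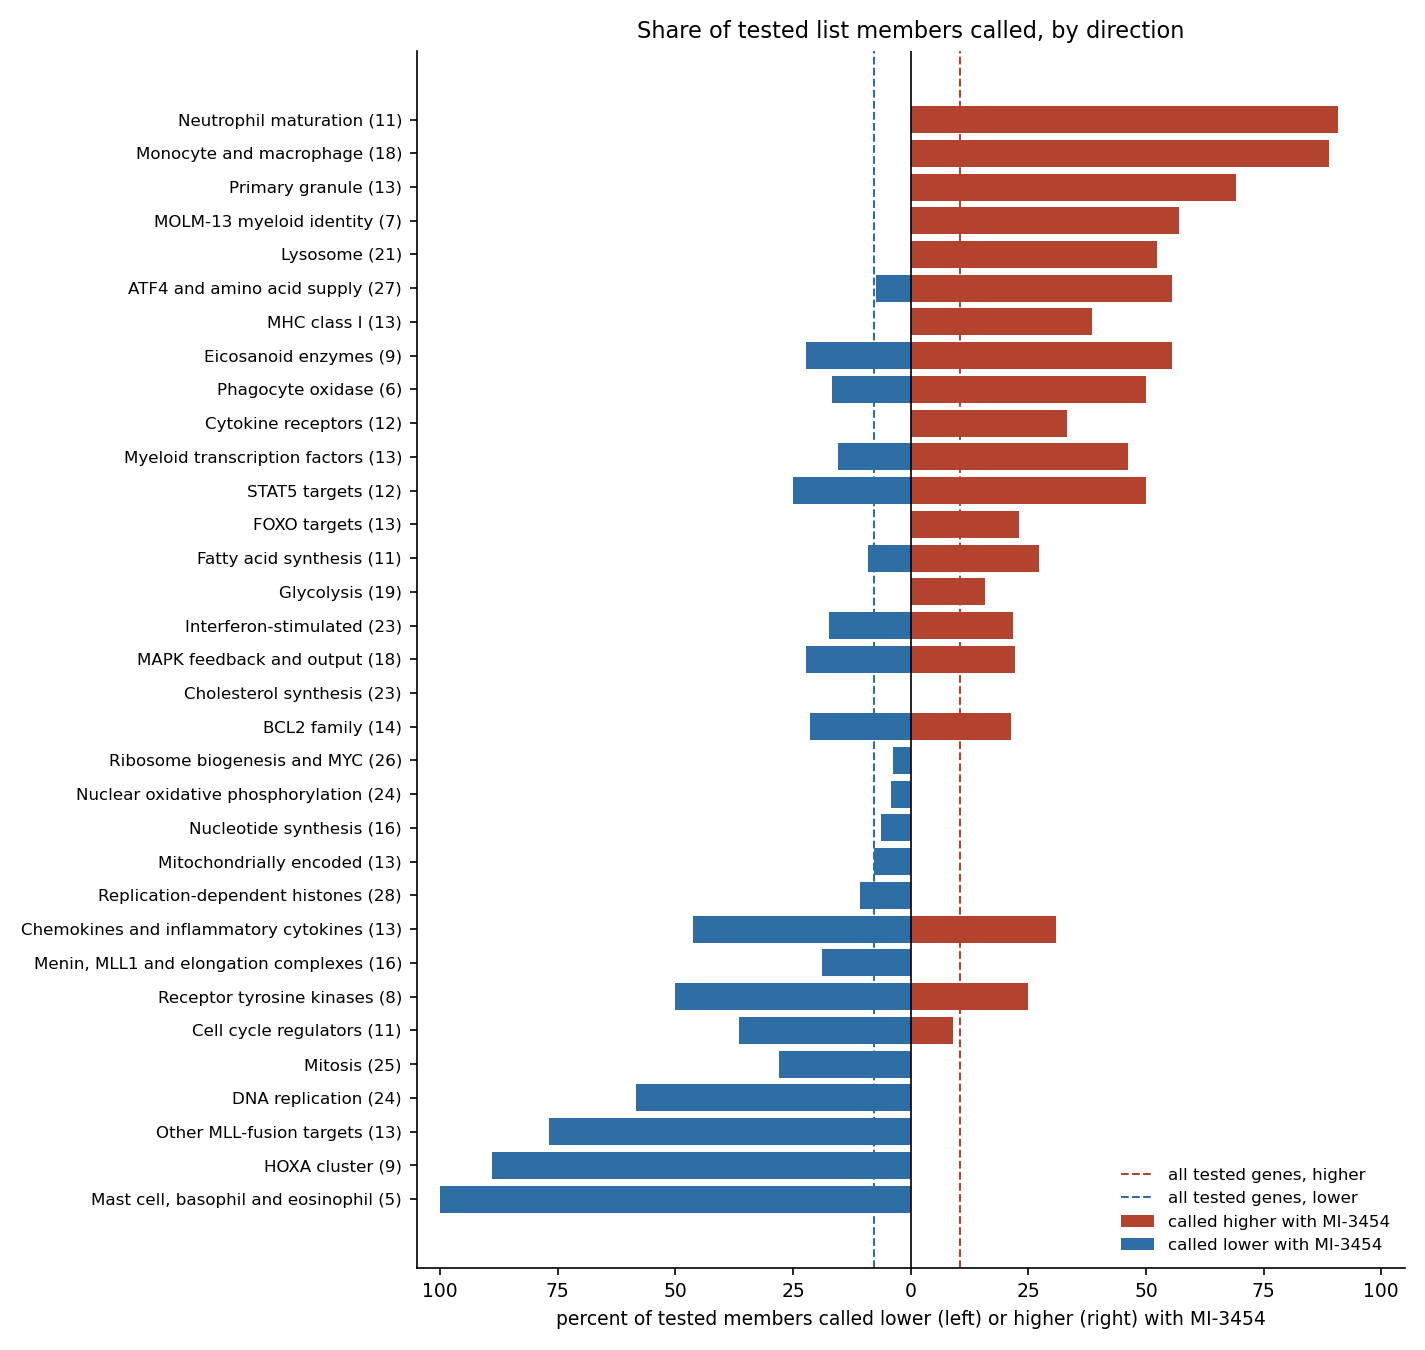
Percent of tested list members called higher (right, red) or lower (left, blue) with MI-3454, for the lists with 5 or more tested members (number in brackets); dashed lines mark the shares over all genes tested, 10.4% higher and 7.72% lower. Neutrophil, monocyte and granule lists extend furthest to the right, the mast cell, HOXA and MLL-fusion target lists furthest to the left, and cholesterol synthesis has no bar. The neutrophil, monocyte and mast cell bars include members that passed the filter through the libraries of a single agent.

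Of 24 DNA replication genes tested, 14 (58.3%, beside 7.72% of all genes) were called lower with MI-3454 and 10 did not pass, with a median of -0.39. Of 25 mitosis genes 7 (28%) were called lower and 18 did not pass, with a median of -0.29. MCM2, a subunit of the replicative helicase, stood at 171, 156 and 200 CPM with MI-3454, 249, 306 and 247 CPM with gilteritinib and an average of 177 CPM with DMSO (-0.61 ± 0.13, adjusted p = 0.00643). PCNA, the sliding clamp, stood at 210, 181 and 214 CPM with MI-3454, against 272, 280 and 250 CPM with gilteritinib (-0.41 ± 0.11, adjusted p = 0.0211). In both genes all 3 gilteritinib libraries lay above the DMSO average, which was 199 CPM for PCNA, as did 2 of the MI-3454 libraries for PCNA and 1 for MCM2. BUB1, a checkpoint kinase of mitosis, stood at 72.9, 56.8 and 68.7 CPM with MI-3454, against 102, 86.4 and 88.2 CPM with gilteritinib (-0.48 ± 0.12, adjusted p = 0.0147), and MKI67, the proliferation marker, missed the threshold (-0.35 ± 0.12, adjusted p = 0.0709). Both counts rested on the model and on which libraries were in the fit. With a replicate block and all 6 libraries, 4 replication genes and 1 mitosis gene were called lower. Replication genes called lower numbered 6 without MI-3454 replicate 1, 1 without MI-3454 replicate 2, 2 without gilteritinib replicate 1, 4 without gilteritinib replicate 2 and 7 without gilteritinib replicate 3. Mitosis genes called lower numbered 14 without MI-3454 replicate 3 and at most 2 without any other single library. BUB1 was not called without MI-3454 replicate 2 (adjusted p = 0.0604) or gilteritinib replicate 1 (0.077).

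Of 11 cell cycle regulators tested, 1 was called higher, CCND2 (9.09%, beside 10.4% of all genes), and 4 lower (36.4%, beside 7.72%). The median was -0.23. CCND1, which reached the filter's cutoff in a single MI-3454 library, was 1 of the 4, and CCND2 was not called without MI-3454 replicate 1 (adjusted p = 0.063) or 2 (0.0566). CDK6, a kinase of G1 and an MLL-fusion target, stood at 420, 444 and 348 CPM with MI-3454, against 787, 706 and 772 CPM with gilteritinib (-0.90 ± 0.12, adjusted p = 0.000367). CDKN2C, which encodes its inhibitor p18, changed by -0.72 ± 0.11 (adjusted p = 0.000707). CDKN1A, which encodes p21, was lower by 0.36 on the log2 scale at an adjusted p of 0.0319. In the BCL2 family, 3 of 14 tested were called higher and 3 lower (21.4% each, beside 10.4% and 7.72% of all genes), with 6 lower without MI-3454 replicate 3 and 7 lower without that library and gilteritinib replicate 2. Beside BCL2 itself, the death proteins BID and BIK were lower, and BCL2A1, a survival protein of mature myeloid cells, was higher, at 5.77, 7.2 and 5.03 CPM with MI-3454, against 3.1, 1.9 and 3.45 CPM with gilteritinib (1.07 ± 0.25, adjusted p = 0.0127). Without MI-3454 replicate 2, BCL2A1 (adjusted p = 0.0527), BID (0.0545) and BIK (0.111) were not called, and the BIK call was also lost without MI-3454 replicate 1 (0.073), gilteritinib replicate 1 (0.139) or gilteritinib replicate 2 (0.0684). MCL1 did not pass, at 258 to 264 CPM and at 286 to 303 CPM (-0.18 ± 0.09, adjusted p = 0.205).

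Proteins of the primary granule are made in the promyelocyte stage of neutrophil development. Of 13 genes tested, 9 (69.2%, beside 10.4% of all genes) were called higher with MI-3454, the others did not pass, and the median was 1.22. MPO, the myeloperoxidase that defines the granule, stood at 625, 508 and 653 CPM with MI-3454, 56.7, 56.3 and 59.1 CPM with gilteritinib and 30.9, 32.7 and 34.6 CPM with DMSO (3.38 ± 0.13, adjusted p = 7.66e-08). LYZ, which encodes lysozyme, stood at 8440, 7620 and 6920 CPM with MI-3454, against 721, 573 and 707 CPM with gilteritinib, and averaged 407 CPM with DMSO (3.52 ± 0.14, adjusted p = 1.01e-07). BPI, a protein that kills Gram-negative bacteria, stood at 318, 301 and 363 CPM, against 74.6, 69.5 and 78 CPM with gilteritinib (2.14 ± 0.11, adjusted p = 2.73e-07). In each of these genes the lowest MI-3454 library was far above the highest gilteritinib library. The serine proteases were less separated. ELANE, neutrophil elastase, stood at 3530, 3350 and 4620 CPM, against 2560, 2970 and 2410 CPM with gilteritinib (0.54 ± 0.15, adjusted p = 0.0272), and AZU1 and PRTN3 overlapped and did not pass. An antisense gene, ENSG00000257764, lies within LYZ on the other strand, and without a stated strand setting its reads cannot be told apart from those of LYZ.

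Of the 22 genes of later neutrophils on the list 11 were tested, 10 were called higher and CXCR2 did not pass, with a median of 3.70. Since 7 of the 11 passed the filter through the MI-3454 libraries alone, the count is a description, and the 4 that passed in both groups held 3 called higher with a median of 1.75. FCAR, the IgA receptor, stood at 25.8, 24.6 and 24.4 CPM with MI-3454, against 3.02, 2.26 and 2.26 CPM with gilteritinib (3.28 ± 0.16, adjusted p = 2.48e-07). S100A9, a subunit of calprotectin, stood at 8.49, 7.9 and 12.2 CPM, against 0.407, 0.714 and 0.108 CPM with gilteritinib. The groups did not overlap in FCAR or S100A9, although S100A9 passed the filter through the MI-3454 libraries alone. PADI4, the enzyme that citrullinates histones, had 108 counts with MI-3454 and 3 with gilteritinib (ratio 37.8, exact 95% counting interval 12.6 to 186), and MMP9, a gelatinase, had 113 and 3 (ratio 39.6, interval 13.2 to 195). Secondary granule genes were hardly detected, with no counts of LCN2, MMP8 or CRISP3 in any of the 6 libraries and 3 of LTF in each group. CAMP, another granule gene that fell under the filter, had 24 counts with MI-3454 and 6 with gilteritinib (ratio 4.2, interval 1.67 to 12.6).

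Of the 18 monocyte and macrophage genes tested, 16 (88.9%, beside 10.4% of all genes) were called higher. ITGAM and CTSS did not pass, and the median was 1.96. With the 4 that passed through the MI-3454 libraries alone set aside, 12 of 14 were called higher, with a median of 1.32. CYBB, the catalytic subunit of the phagocyte oxidase, stood at 270, 253 and 200 CPM with MI-3454, 33.2, 22 and 30.8 CPM with gilteritinib and an average of 11.5 CPM with DMSO (3.06 ± 0.17, adjusted p = 4.02e-07). MNDA, a nuclear antigen of myeloid cells, stood at 103, 85.3 and 83 CPM with MI-3454, against 6.27, 5 and 5.82 CPM with gilteritinib (3.97 ± 0.14, adjusted p = 5.23e-08). TLR4, the lipopolysaccharide receptor that CD14 serves, stood at 179, 161 and 124 CPM, against 35.5, 30.2 and 33.5 CPM with gilteritinib (2.22 ± 0.14, adjusted p = 1.2e-06). In all of these the groups did not overlap.

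Within the phagocyte oxidase, 3 of 6 subunits (50%, beside 10.4% of all genes) were called higher and 1 (16.7%, beside 7.72%) lower. CYBB was among those higher, whereas CYBA, the membrane partner of CYBB, overlapped at 348, 334 and 501 CPM with MI-3454, against 400, 481 and 403 CPM with gilteritinib (-0.12 ± 0.16, adjusted p = 0.646). NCF4 was called higher by 0.44 and NCF1 lower by 0.64. NCF1 has near-identical pseudogene copies, and its call was lost without MI-3454 replicate 1 (adjusted p = 0.0835), MI-3454 replicate 2 (0.0729) or gilteritinib replicate 2 (0.0515). NCF4 was not called without gilteritinib replicate 1 (0.101) or gilteritinib replicate 3 (0.0785).

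Of the transcription factors that direct myeloid fate, 6 of 13 tested (46.2%, beside 10.4% of all genes) were called higher. The number lower was 2 (15.4%, beside 7.72%), and the median was 0.49. The number lower was 4 without MI-3454 replicate 3 and 1 without any other single library except gilteritinib replicate 3. CEBPD, of the CCAAT enhancer binding family, stood at 259, 243 and 300 CPM with MI-3454, 118, 122 and 120 CPM with gilteritinib and an average of 61.8 CPM with DMSO (1.15 ± 0.11, adjusted p = 2.06e-05). RUNX1, the core binding factor, stood at 489, 477 and 478 CPM, against 257, 280 and 257 CPM with gilteritinib (0.86 ± 0.10, adjusted p = 0.00011). KLF4, a factor of monocytes, changed by 1.55 ± 0.20 (adjusted p = 0.0003). IRF8, which monocytes and dendritic cells need, was lower, at 161, 181 and 193 CPM, against 288, 275 and 274 CPM with gilteritinib (-0.65 ± 0.10, adjusted p = 0.00113). SPI1, CEBPA and GFI1 overlapped between the groups and did not pass.

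Of 21 lysosomal genes tested, 11 (52.4%, beside 10.4% of all genes) were called higher with MI-3454 and the others did not pass, with a median of 0.43, and 7 were called higher without gilteritinib replicate 3. CTSD, the protease cathepsin D, stood at 105, 104 and 133 CPM with MI-3454, against 67.6, 71 and 69.3 CPM with gilteritinib (0.71 ± 0.11, adjusted p = 0.00108). GRN, which encodes progranulin, stood at 1120, 1100 and 1410 CPM, against 723, 811 and 734 CPM with gilteritinib (0.68 ± 0.13, adjusted p = 0.00345). TFEB, the factor that drives lysosome genes, did not pass (0.20 ± 0.12, adjusted p = 0.302). Among the enzymes of leukotriene and prostaglandin synthesis, 5 of 9 tested (55.6%) were called higher and 2 (22.2%) lower, beside 10.4% and 7.72% of all genes, and 1 was lower without MI-3454 replicate 1 or gilteritinib replicate 1. ALOX5, 5-lipoxygenase, stood at 13.2, 17 and 16.3 CPM with MI-3454, 0.652, 1.55 and 1.51 CPM with gilteritinib and an average of 7.11 CPM with DMSO. The first gilteritinib library of ALOX5 lay below the filter's cutoff. ALOX5AP, the activating partner of ALOX5, overlapped, at 112 to 164 CPM with MI-3454 and 130 to 142 CPM with gilteritinib.

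Of 13 genes of mast cells, basophils and eosinophils, 5 were tested and 5 were called lower with MI-3454, beside 7.72% of all genes. The median was -2.87. TPSAB1 passed the filter through the gilteritinib libraries alone, and the 4 that passed in both groups had a median of -2.25. EPX, eosinophil peroxidase, stood at 15.6, 25.6 and 16.7 CPM with MI-3454, 147, 147 and 131 CPM with gilteritinib and an average of 37.1 CPM with DMSO (-2.87 ± 0.17, adjusted p = 6.31e-07). TPSB2, a mast cell tryptase, stood at 1.52, 3.8 and 3.42 CPM, against 31.2, 51.6 and 36.5 CPM with gilteritinib, and averaged 8.63 CPM with DMSO (-3.75 ± 0.28, adjusted p = 4.2e-06). TPSB2 and TPSAB1 are near-identical copies, so the split of reads between them is uncertain. GATA2, the factor that directs these lineages, stood at 87.2, 84.6 and 120 CPM with MI-3454, 279, 310 and 309 CPM with gilteritinib and 171, 196 and 141 CPM with DMSO (-1.62 ± 0.14, adjusted p = 1.24e-05). In EPX, TPSB2 and GATA2 the 3 gilteritinib libraries lay above the DMSO average and the 3 MI-3454 libraries below it. The defining surface receptor of mast cells and basophils, FCER1A, had no counts in the 6 libraries. MS4A2, its beta chain, had 10 counts with MI-3454 and 0 with gilteritinib, at least 3.5-fold higher when 3 counts are set as the group's floor, and CLC, a granule protein of eosinophils and basophils, had 26 and 4 counts (ratio 6.83, interval 2.37 to 26.9). These 2 therefore stood the other way round. Among stem cell genes, ANGPT1, a ligand of TIE2, was lower by 2.68 on the log2 scale (adjusted p = 1.57e-06), whereas CD34 had no counts.

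Of 13 genes of antigen presentation by MHC class I tested, 5 (38.5%, beside 10.4% of all genes) were called higher with MI-3454 and the others did not pass, with a median of 0.32, and the number was 3 without MI-3454 replicate 1 or without gilteritinib replicate 3. NLRC5, the transactivator of these genes, stood at 118, 130 and 128 CPM with MI-3454, against 66.8, 70.1 and 64.3 CPM with gilteritinib, and averaged 48.5 CPM with DMSO (0.91 ± 0.09, adjusted p = 4.18e-05). HLA-B changed by 0.75 ± 0.13 (adjusted p = 0.00171), and reads of genes this similar can be split by the counting. TAP1, the peptide transporter, overlapped at 49.1 to 58.8 CPM and 54 to 55.5 CPM. Of the class II genes, 4 of 11 were tested, and HLA-DQB1 was the single call, at 5.22, 4.1 and 4.81 CPM, against 1.06, 1.43 and 0.538 CPM with gilteritinib. The third gilteritinib library of HLA-DQB1 lay below the filter's cutoff.

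Of 23 interferon-stimulated genes tested, 5 (21.7%, beside 10.4% of all genes) were called higher and 4 (17.4%, beside 7.72%) lower with MI-3454. The median was 0.14, and 14 did not pass. Of the 22 that passed the filter in both groups, 5 were called higher and 3 lower. IFI6, a membrane protein of mitochondria, stood at 12, 9.3 and 12.8 CPM with MI-3454, against 4.24, 5.35 and 6.57 CPM with gilteritinib (1.09 ± 0.20, adjusted p = 0.00357). MX2, an antiviral GTPase, stood at 23.7, 26 and 24.9 CPM, against 9.53, 13.6 and 13.5 CPM with gilteritinib (1.04 ± 0.15, adjusted p = 0.00068). On the other side, IFIT1, which binds foreign RNA, stood at 0.544, 0.3 and 0.214 CPM with MI-3454, 1.71, 1.55 and 2.69 CPM with gilteritinib and an average of 7.46 CPM with DMSO. IFIT2, its relative, stood at 3.59, 4.3 and 4.07 CPM, against 8.48, 7.38 and 9.05 CPM with gilteritinib, and averaged 30.5 CPM with DMSO (-1.06 ± 0.18, adjusted p = 0.00208). The groups did not overlap in IFI6, MX2, IFIT2 or IFIT1, although IFIT1 passed the filter through the gilteritinib libraries alone.

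The promoters of IFIT1 and IFI6 are shown because both hold letters of the interferon-stimulated response element, while IFIT1 levels were lower and IFI6 levels higher in each MI-3454 library than in any gilteritinib library. They cover the 250 bases before the start in RefSeq on GRCh38.p14, at chr10:89392373-89392622 on the plus strand for IFIT1 and chr1:27672193-27672442 on the minus strand for IFI6. The capitals mark matches, on either strand and overlapping ones included, to GAAA followed by any 2 bases and GAAA.
IFIT1: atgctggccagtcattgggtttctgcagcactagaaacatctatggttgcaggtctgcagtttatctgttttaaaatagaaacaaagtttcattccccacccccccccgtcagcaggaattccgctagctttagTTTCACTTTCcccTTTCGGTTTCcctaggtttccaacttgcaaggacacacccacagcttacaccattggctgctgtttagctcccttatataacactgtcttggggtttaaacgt
IFI6: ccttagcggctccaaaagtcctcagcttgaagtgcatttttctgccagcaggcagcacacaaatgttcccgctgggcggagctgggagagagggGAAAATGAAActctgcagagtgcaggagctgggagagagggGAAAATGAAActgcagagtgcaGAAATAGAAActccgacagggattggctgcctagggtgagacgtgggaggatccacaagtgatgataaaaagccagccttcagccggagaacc
The matches begin 116 and 103 bases before the start of IFIT1, and 156, 115 and 93 bases before the start of IFI6. Of 24 list members with a promoter in the table, 14 (58.3%) held the motif, beside 3.02% of all promoters.

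Of 13 secreted inflammatory factors tested, 4 (30.8%, beside 10.4% of all genes) were called higher and 6 (46.2%, beside 7.72%) lower. Of the 10 that passed the filter in both groups, 3 were higher and 4 lower. CCL5, a chemokine of T cells and monocytes, stood at 144, 161 and 204 CPM with MI-3454, 480, 571 and 569 CPM with gilteritinib and an average of 336 CPM with DMSO (-1.67 ± 0.14, adjusted p = 1.24e-05). TNF stood at 70.9, 64.3 and 92.3 CPM, against 142, 147 and 143 CPM with gilteritinib, and averaged 65.5 CPM with DMSO (-0.93 ± 0.13, adjusted p = 0.000422). CXCL8, the neutrophil chemokine interleukin-8, stood at 20, 24.3 and 15.2 CPM with MI-3454, against 3.99, 3.69 and 3.88 CPM with gilteritinib (2.36 ± 0.20, adjusted p = 1.21e-05). TNFSF13B, the B cell survival factor BAFF, changed by 1.59 ± 0.14 (adjusted p = 1.52e-05). IL1B, interleukin-1 beta, stood at 3.26, 2.6 and 4.6 CPM with MI-3454, against 0.326, 0.357 and 0.323 CPM with gilteritinib. In each of these the MI-3454 and gilteritinib libraries did not overlap, although IL1B passed the filter through the MI-3454 libraries alone.

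**Figure D4:**
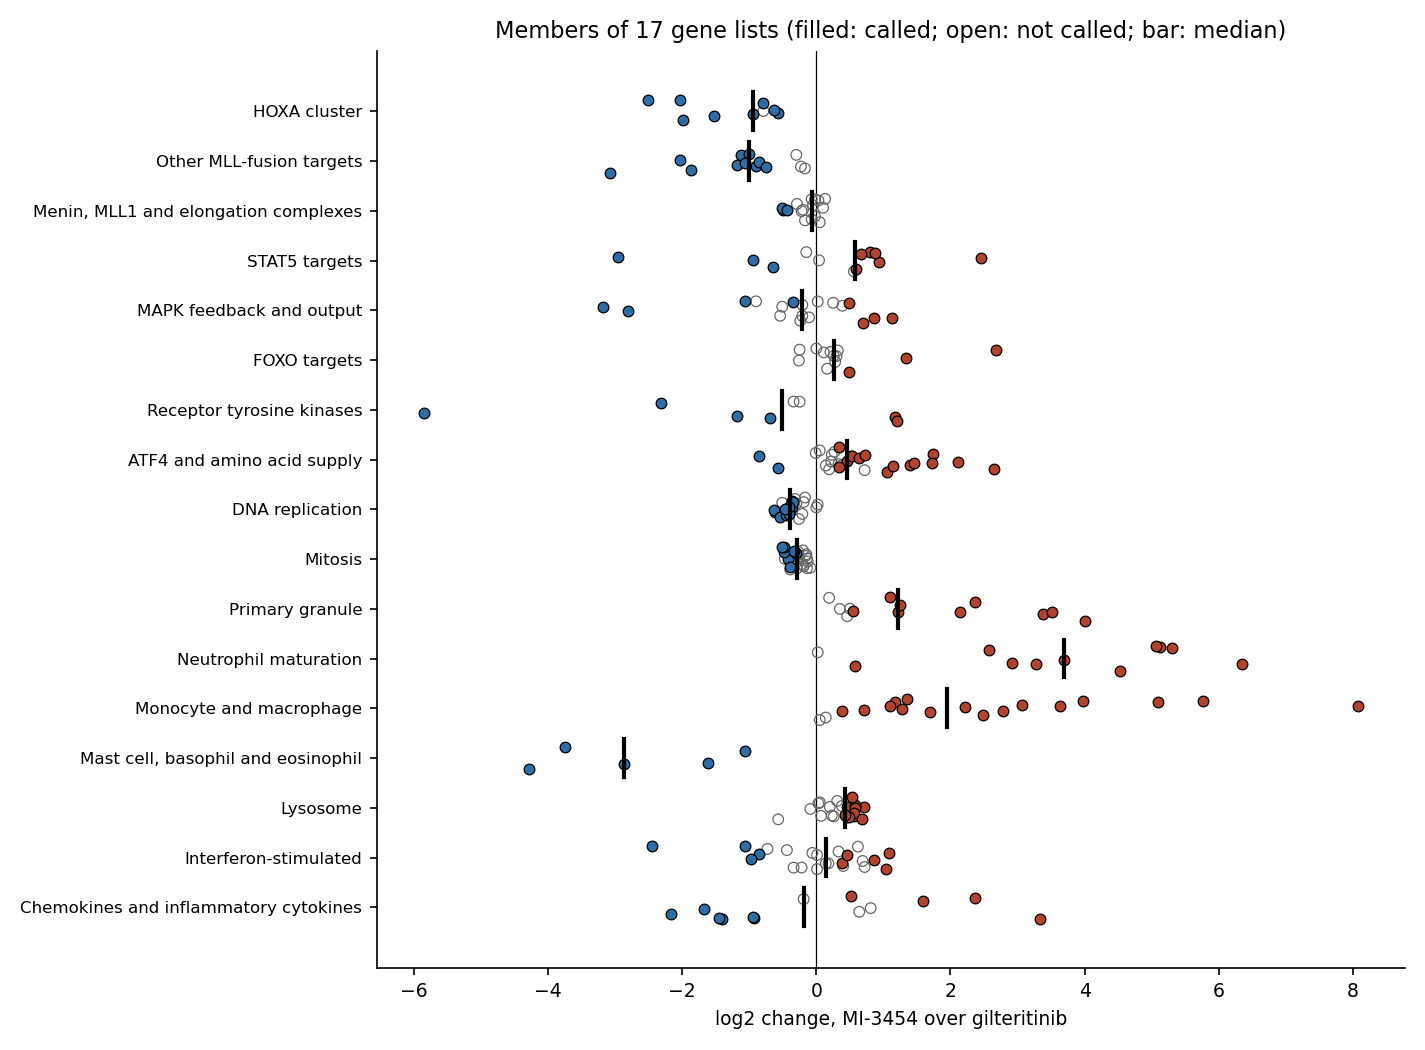
Log2 change of MI-3454 over gilteritinib (horizontal axis) of each tested member of 17 gene lists; filled points were called, open points were not, and the vertical bar is the list's median. The HOXA, MLL-fusion target and mast cell lists lie left of 0 with medians of -0.95, -1.01 and -2.87, the neutrophil and monocyte lists lie right of 0 with medians of 3.70 and 1.96, and the STAT5 list spans both sides. Among members that passed the filter in both groups, the mast cell, neutrophil and monocyte medians were -2.25, 1.75 and 1.32.

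A pair of gene groups moved with single libraries. The 13 mitochondrially encoded genes had a median of -1.99, with 1 (7.69%, beside 7.72% of all genes) called lower. MT-ND2, a subunit of complex I, stood at 34.2, 20 and 99.4 CPM with MI-3454, against 63.6, 1310 and 75.8 CPM with gilteritinib (-3.23 ± 1.04, adjusted p = 0.0547). Gilteritinib replicate 2 was the high library, and the single call, MT-ND6 at -1.99 ± 0.61, was lost without it (-0.70, adjusted p = 0.0963). The number of mitochondrially encoded genes called lower was 13 without MI-3454 replicate 3, 13 without that library and gilteritinib replicate 2, 8 without gilteritinib replicate 1 and 6 without gilteritinib replicate 3. Replication-dependent histone genes, whose messages lack a poly(A) tail, had a median of -0.51 with 3 of 28 (10.7%, beside 7.72% of all genes) called lower. H2AC13 stood at 211, 149 and 463 CPM with MI-3454, against 352, 680 and 348 CPM with gilteritinib, so MI-3454 replicate 3 and gilteritinib replicate 2 were the high libraries of their groups. Without MI-3454 replicate 3, 28 of the 28 were called lower, and without any other single library 1 was. The nuclear genes of oxidative phosphorylation had a median of -0.13, with 1 of 24 (4.17%, beside 7.72% of all genes) called lower and none higher. Without MI-3454 replicate 3, 9 were called lower and 2 higher, and without that library and gilteritinib replicate 2, 11 were called lower and 2 higher. What moved these libraries was not tested.

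Several markers of other cell types were at 0. No counts of MS4A1, CD3E, CD2, PF4, HBB, KRT19, CDH1 or COL3A1 were found in the 6 libraries. Summed over their lists, B cell markers reached 0.653 to 1.18 CPM with MI-3454 and 1.3 to 1.78 CPM with gilteritinib, T cell markers 0.5 to 2.89 and 1.96 to 3.09 CPM, and megakaryocyte markers 0.653 to 1.1 and 1.07 to 1.72 CPM. Erythroid markers summed to 0 to 0.8 CPM with MI-3454 and 0 to 0.357 CPM with gilteritinib, and fibroblast markers to 0 to 1.07 and 2.44 to 3.55 CPM. The epithelial list was at 10.1 to 14.2 CPM with MI-3454 and 13.8 to 14.8 CPM with gilteritinib, through the keratins KRT18 and KRT8, neither of which was called. The NK list was higher, at 69.9 to 96.1 CPM with MI-3454 and 41.5 to 52 CPM with gilteritinib, through NCAM1 (0.86 ± 0.13, adjusted p = 0.000801) and NKG7 (0.75 ± 0.17, adjusted p = 0.0109). NKG7 was not called without gilteritinib replicate 1 (adjusted p = 0.0501). The constant segments of T cell receptor genes also differed, although CD3E and CD3G had no counts and no T cell marker was called. TRGC1 stood at 31.3, 30.3 and 28.3 CPM with MI-3454, against 1.87, 2.5 and 3.45 CPM with gilteritinib (3.55 ± 0.19, adjusted p = 3.71e-07). TRAC stood at 3.16, 4 and 5.35 CPM, against 34.8, 35.3 and 38.2 CPM with gilteritinib (-3.11 ± 0.17, adjusted p = 4.28e-07). COL1A1, a fibroblast collagen that passed the filter through the gilteritinib libraries alone, stood at 0, 0.6 and 1.07 CPM, against 2.12, 3.45 and 3.23 CPM with gilteritinib.

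**Figure D5:**
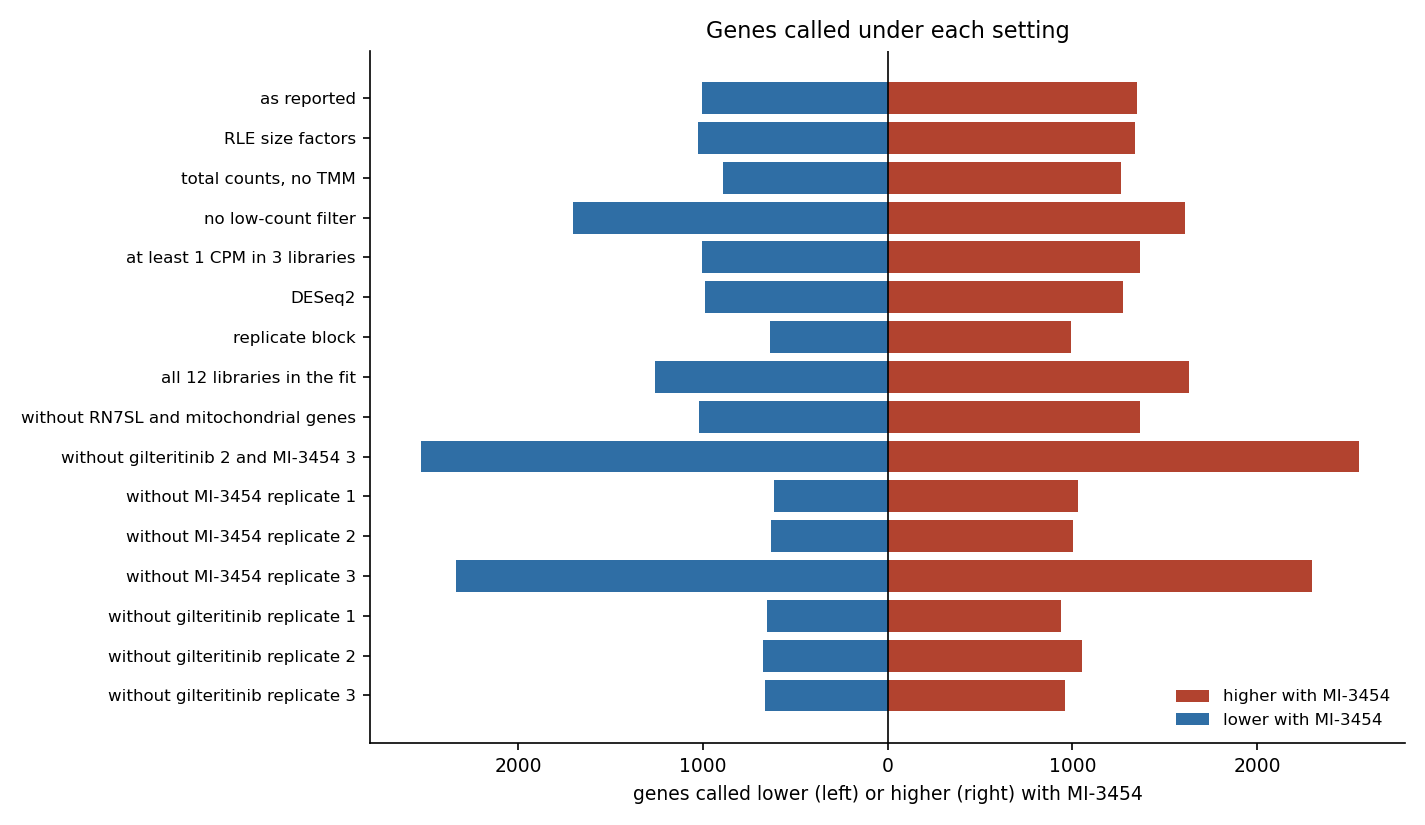
Number of genes called higher (right, red) and lower (left, blue) with MI-3454 over gilteritinib under the reported fit and 15 alternatives, 1 row each. The reported fit calls 1351 higher and 1004 lower, and the fit without gilteritinib replicate 2 and MI-3454 replicate 3 calls 2551 and 2527.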

How the data were processed

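RNA was sequenced from MOLM-13 cultures after 8 days with MI-3454, gilteritinib, DMSO or both agents, 3 libraries each. The deposited values are counts of reads per gene, 60668 genes in each file, with 5 summary lines that were left out of library sizes and tests. The build GRCh38 and the tools HTSeq 0.11.2, STAR 2.7.1a, DESeq2 and cutadapt 2.1 are listed in the submitters' processing notes, without roles. The sources used here state neither the annotation release nor the strand setting. Symbols were matched by gene ID (60295 matched), and gene coordinates came from GENCODE 29.

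The 3 MI-3454 and 3 gilteritinib libraries alone were filtered (filterByExpr, a cutoff of 1.08 CPM), scaled by TMM and tested with edgeR 4.0.16 (quasi-likelihood, R 4.3.3), with Benjamini-Hochberg adjustment over all 13010 genes and calls at 0.05. CPM are TMM-scaled counts in a library of 1e6, and DMSO values were scaled to the same reference library for description only. Tallies of where DMSO lay were not made, since only levels per gene are given. Library shares were tested by exact permutation. Ratios of low counts have exact 95% intervals, and intervals and the floor of 3 counts cover counting error only. The fit was tested on simulated data.

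Genes named were 13 anchors, the 8 protein-coding genes furthest in each direction whose higher group averaged 5 CPM or more and whose groups did not overlap, the 4 of other biotypes furthest each way, and leading members of each list. Others named in the text as examples were chosen after their values were seen. The members and lists were chosen with earlier results of these data known. Promoters were searched on both strands in RefSeq sequences of GRCh38.p14. Alternatives were DESeq2 1.42.0, other scalings and filters, a replicate block, a fit of all 12 libraries, and leaving out libraries. Library depth was 8983203 to 12051457 counts.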

Additional observations from a re-analysis of the deposited data

How the results depend on the processing

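No gene called in the reported fit changed sign while called under any of the 15 alternatives. Among 138 named genes, of which MYC and MEN1 were not called, all calls were kept with RLE size factors and with no filter. Without RN7SL and mitochondrial genes, MT-ND6 was itself left out and the other 137 were unchanged. With total counts 3 calls were lost, with DESeq2 4 and with all 12 libraries in the fit 1. With no low-count filter, 1706 genes were lower, 478 of them at least 2-fold. DESeq2 called 2261 genes. Same-numbered libraries correlated in their deviations from the group mean at 0.24, -0.34 and -0.24. The highest value between the groups, 0.48, joined MI-3454 replicate 3 and gilteritinib replicate 2. Deviations within a group of 3 depend on each other, so these values cannot decide whether same-numbered cultures were paired. With a replicate block 635 genes were lower and 18 named calls were lost. Without gilteritinib replicate 2 and MI-3454 replicate 3, 5078 genes were called, 2551 higher and 2527 lower. Leaving out 1 library gave 1593 to 4635 genes in all, 940 to 2299 higher and 613 to 2336 lower, the highest of each without MI-3454 replicate 3, and 1538 to 2310 of the 2355 calls were kept. MYC, which was not called, had a log2 change of -0.03 without MI-3454 replicate 3 and up to 0.11 without gilteritinib replicate 2. The cause of these shifts was not tested.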
